A study of Saccharomyces cerevisiae with 3 samples.

Results

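The genes described here encode the transport machinery of the yeast nuclear envelope: 15 karyopherins, the 2 Ran GTPases GSP1 and GSP2, and 27 nucleoporins, counted with the mRNA export factors GLE1 and GLE2. They are given by name in a list of open reading frames (ORFs), by a rule that uses no measured value, and make 44 of the 6207 ORFs in the deposited table. All 44 were found in the table and in the RefSeq gene table. Cells of the MID2extWSC1cyt strain of Saccharomyces cerevisiae, whose background is BY4741, were grown in YEPD at 24 °C and the culture was split. The part given caspofungin at 15 ng/ml was compared after 2 h with the part left without it, as total RNA on 2-colour DNA microarrays. By its name the strain carries a chimera of 2 cell wall stress sensors, the outer part of Mid2 and the cytoplasmic part of Wsc1, and the treated and untreated cells both carried it. Caspofungin inhibits the synthase of β-1,3-glucan in the wall.

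Proteins and RNAs cross the nuclear envelope through nuclear pore complexes, which are built of nucleoporins. Scaffold nucleoporins form rings around the pore, membrane nucleoporins anchor them, and nucleoporins with phenylalanine-glycine (FG) repeats fill the channel and bind passing carriers. Karyopherins are these carriers. Importins release their cargo in the nucleus when they bind Ran in its GTP form, while exportins bind cargo together with Ran-GTP and release it in the cytoplasm. Export of mRNA runs mostly without karyopherins and ends at the cytoplasmic face of the pore, where Gle1 activates an RNA helicase.

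The labels describe 2 cultures with 2 dye-swapped hybridizations each. The arrays analysed here are those whose titles end in 1, 2 and 4. RNA from caspofungin-treated cells was labelled with Cy3 for array 1 and with Cy5 for arrays 2 and 4. The last 2 therefore belong to different cultures, and which of them array 1 shares a culture with is not stated in the labels. The values are log2 ratios, and neither the labels nor the table state their direction. Signs are therefore those of the deposited scale. If every ratio is caspofungin over untreated, positive means a higher level in treated cells. If array 1 were instead Cy5 over Cy3 like the others, its sign would have to be turned, and the values with that change are given below. The medians over all ORFs were −0.24, −0.14 and −0.93 on the 3 arrays in that order, so a value near these is typical of its array and a value of 0 is not. Of the mating-type genes, 4 of 6 a-specific genes and 0 of 4 alpha-specific genes had a value, where 62.4% of all ORFs had at least 1. The labels do not say why values are missing, so these counts do not test the haploid background.

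A value was present for most of the transport genes on array 1 and for few on array 4. Array 1 gave a value for 29 of the 44 members (65.9%, against 60.4% of all ORFs), array 2 for 20 (45.5%, against 45.6%) and array 4 for 6 (13.6%, against 13.8%). All 3 arrays measured 4 members, and 13 members (29.5%, against 37.6% of all ORFs) had no value on any. Those 13 were the importins KAP104, SXM1 and NMD5, and the nucleoporins NUP1, NUP82, NUP84, NUP85, NUP120, NUP145, NUP159, NUP170, NUP188 and POM152. NUP84, NUP85 and NUP120 are genes of the Nup84 complex, the outer scaffold ring, and NUP145 encodes a further subunit of it. An empty cell is not a zero, and the labels do not say what emptied it.

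**Figure D1:**
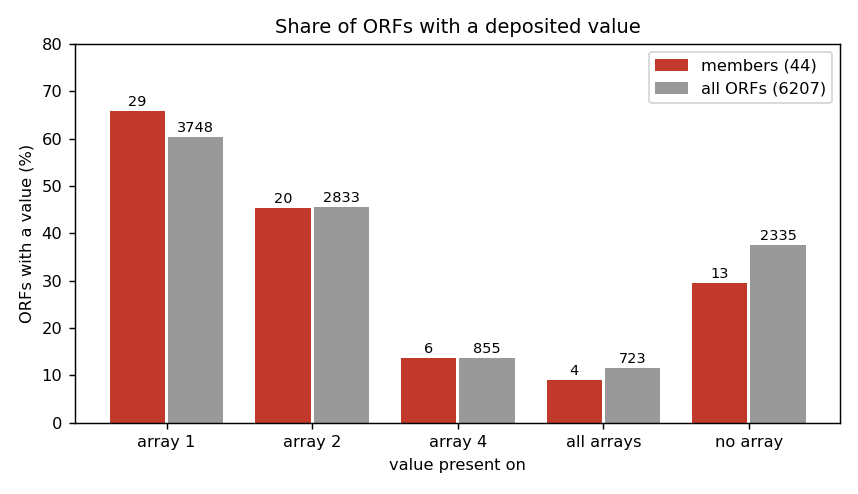
Share of ORFs (%, vertical axis) with a deposited value on each array, on all arrays and on none, for the 44 members (red) and all 6207 ORFs (grey); the number above a bar is its count of ORFs. The 2 bars are close for arrays 2 and 4, and fewer of the members than of all ORFs lacked any value (29.5% against 37.6%).

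The 4 members measured on all 3 arrays were LOS1, GSP1, GLE1 and NUP133, and none was called. LOS1 (YKL205W), the exportin for tRNA, had −0.45, 0.00 and −2.26 on arrays 1, 2 and 4. NUP133 (YKR082W), a scaffold nucleoporin of the Nup84 complex, had −0.25, −0.53 and −1.60. GLE1 (YDL207W) had −0.27, −0.02 and −1.24. In these 3 genes array 4 gave the lowest value, as it gave the lowest median over all ORFs. GSP1 (YLR293C), the main Ran GTPase, had 0.10, −0.32 and −0.05, and so lacked a common sign.

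In the fit of the 3 arrays, which has terms for caspofungin and for dye, the values were −0.79 for LOS1, −0.66 for NUP133, −0.45 for GLE1 and −0.04 for GSP1. Each had a standard error of 0.73 (3 arrays), pooled over the ORFs tested from the spread between arrays 2 and 4. The limma adjusted p was 0.868 for LOS1, 0.904 for NUP133, 0.971 for GLE1 and 0.996 for GSP1. So 0 of 4 members passed an adjusted p under 0.05 in limma, where 0.277% of the 723 ORFs tested passed. An unadjusted p under 0.05 was found for 0 of the 4, where 23 of the 723 ORFs had one. Likewise 0 of 4 reached 2-fold with 1 sign on every array, where 13.1% of the ORFs did. All 4 fitted values were negative, as were 73.4% of those over all ORFs, and the members' median was −0.55 against −0.36 for all ORFs. With each array centred on its median GSP1 had 0.34, and the medians were −0.17 for the members and 0.03 for all ORFs. Without array 4 the values were −0.23 for LOS1, −0.39 for NUP133, −0.14 for GLE1 and −0.11 for GSP1. The dye term of the same fit was −0.34 for LOS1, −0.41 for NUP133, −0.18 for GLE1 and −0.14 for GSP1, each with the same standard error.

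Arrays 1 and 2 together measured 20 members, and the 3 highest means were those of CSE1, NSP1 and KAP95. Srp1 (importin alpha) binds the nuclear localization signal of a cargo, Kap95 (importin beta) carries the pair through the pore, and Cse1 returns Srp1 to the cytoplasm. CSE1 (YGL238W) had 1.90 on array 1 and 1.08 on array 2, that is, deposited ratios of 3.73 and 2.12. This was the highest value among the members on either array, 33rd from the top of 3748 ORFs on array 1 and 49th of 2833 on array 2. KAP95 (YLR347C) had 0.77 and 0.82, positive by nearly the same amount on both arrays. SRP1 (YNL189W), the cargo adaptor of the trio, had 0.56 and −0.06 and so no common sign on the deposited scale. The second value lay above the median of all ORFs on array 2, −0.14.

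The mean of arrays 1 and 2 was 1.49 ± 0.29 for CSE1 (SE, 2 arrays), with a limma adjusted p of 0.0586 over 2818 ORFs. For KAP95 it was 0.79 ± 0.26 (SE, 2 arrays; limma adjusted p = 0.276) and for SRP1 0.25 ± 0.28 (SE, 2 arrays; limma adjusted p = 0.645). The median of all 2818 ORFs was −0.18, below the means of these 3 genes. With each array centred on its median, CSE1 had 1.68 and was called (limma adjusted p = 2.98e-05), while KAP95 had 0.98 and was not (limma adjusted p = 0.0553). SRP1 then had 0.44, was positive on both arrays and was not called (limma adjusted p = 0.688). With the trend on gene length removed, CSE1 had 1.59 and was called (limma adjusted p = 0.0307), and SRP1 had 0.16 without a common sign. With the sign of array 1 turned, CSE1 had −0.41 and KAP95 had 0.03, and neither was called.

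Other carriers mostly had values on array 1 alone, and most of those were negative. CRM1 (YGR218W), the exportin for proteins with leucine-rich export signals, was the exception with 1.34 on array 1. MSN5 (YDR335W), the exportin for many phosphorylated proteins, had −1.64 there, and KAP120, a carrier linked to pre-ribosome factors, had −1.70. So the 5 carriers grouped as exportins, all with a value on array 1, spanned −1.70 to 1.90 on that array. Among importins of ribosomal proteins, KAP123 had −0.47 on array 1, and its relative PSE1 had −0.90 on array 1 and 0.18 on array 2. MTR10, the importin of the mRNA-binding protein Npl3, had −0.77, and KAP114, the importin of the TATA-binding protein, had −1.34. KAP122 (PDR6, YGL016W), the importin of transcription factor TFIIA, had a value on array 4 alone, −6.25, the 3rd lowest of the 855 ORFs there.

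The 2 Ran genes lay near or below 0. GSP2 (YOR185C), whose protein is nearly the same as that of GSP1, had −0.66 on array 1 and −0.49 on array 2, negative on both. Its mean was −0.58 ± 0.26 (SE, 2 arrays; limma adjusted p = 0.382), against −0.11 ± 0.27 for GSP1 (SE, 2 arrays; limma adjusted p = 0.834). The difference between these genes was not tested. If spots for one can bind the transcript of the other, which was not tested, they may not be separate measurements. With the length trend removed the means were −0.17 for GSP2 and 0.30 for GSP1, both short genes (663 and 660 bp). With the sign of array 1 turned GSP2 had 0.09.

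**Figure D2:**
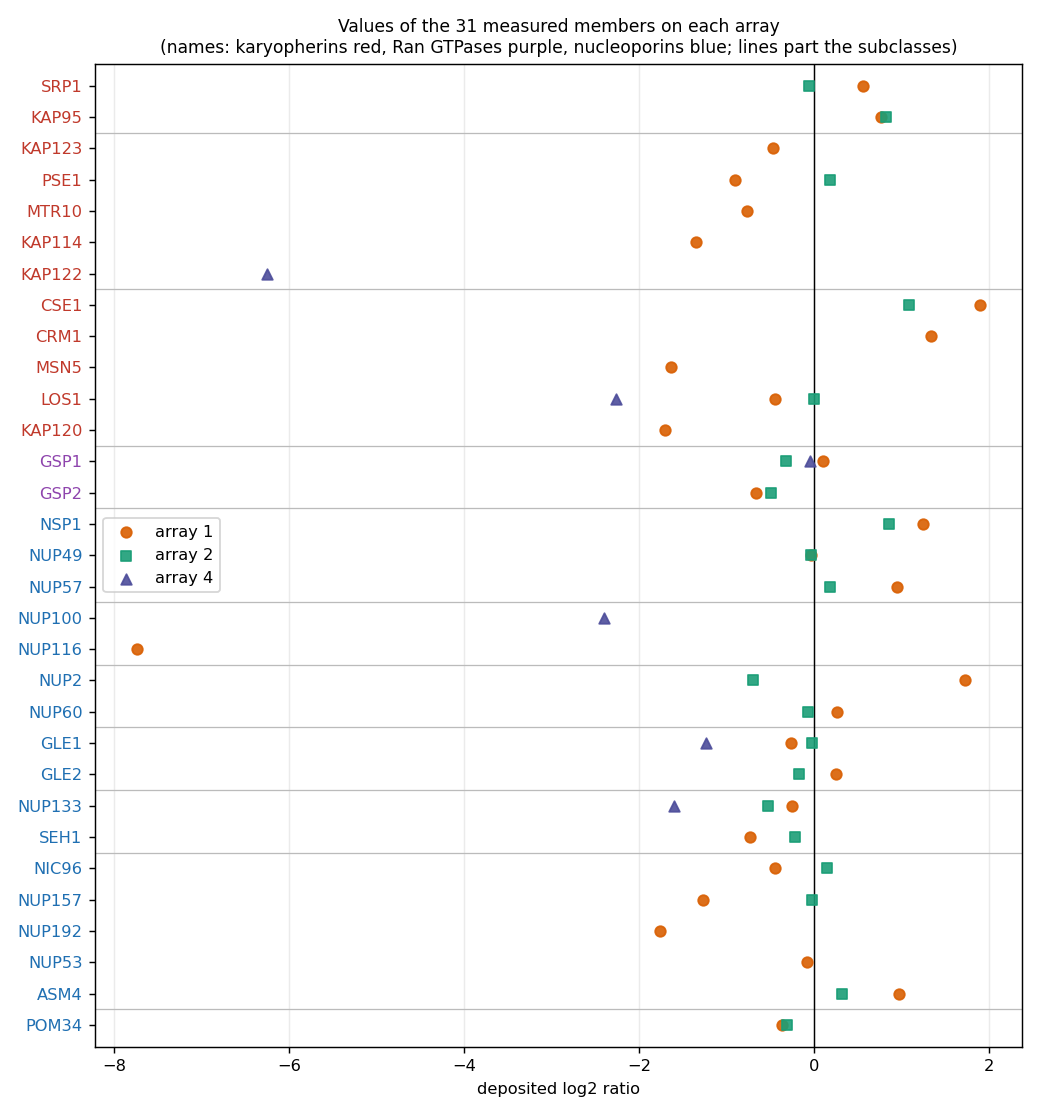
Deposited log2 ratio (horizontal axis) of the 31 members with at least 1 value, grouped by their role, on array 1 (circles), array 2 (squares) and array 4 (triangles). CSE1, KAP95 and NSP1 lie right of 0 on both arrays that measured them, array 4 lies left of 0 in all 6 members it measured, and NUP116 and KAP122 stand far to the left with 1 value each.

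Nucleoporins of the central channel were positive or near 0. Nsp1, Nup49 and Nup57 form a complex of FG nucleoporins in the channel. NSP1 (YJL041W) had 1.24 on array 1 and 0.86 on array 2, with a mean of 1.05 ± 0.27 (SE, 2 arrays; limma adjusted p = 0.136). NUP57 had 0.95 and 0.19, also positive on both arrays. NUP49 had −0.04 on each array, the closest agreement of the 20 members on the deposited scale. After median centring NSP1 had 1.24 and was called (limma adjusted p = 0.00574), and with the sign of array 1 turned it had −0.19.

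Among the FG nucleoporins outside that complex, NUP116 was very low on its 1 array and NUP2 had opposite signs. NUP2 (YLR335W), a mobile nucleoporin of the nuclear basket, had 1.72 on array 1 and −0.70 on array 2. That gap of 2.42 was the widest of the 20 members on the deposited scale, and its mean of 0.51 had a standard error of 0.48. With the sign of array 1 turned the gap of NUP2 was 1.02, and the widest was that of CSE1, 2.98. NUP60, which tethers Nup2 to the basket, had 0.26 and −0.07. NUP116 (YMR047C), a nucleoporin with GLFG repeats, had −7.73 on array 1, a ratio of 0.0047, and no value elsewhere. This was the lowest value of array 1, shared with 1 other ORF, and 3 of 3748 ORFs there were at −5 or below. Its relative NUP100 had a value on array 4 alone, −2.40, so the pair cannot be compared.

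At the cytoplasmic face GLE2, a factor of mRNA export that binds Nup116, had 0.26 on array 1 and −0.17 on array 2. Its values and those of GLE1 on these arrays lay between −0.27 and 0.26, and neither NUP82 nor NUP159 of that face had a value.

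The means of scaffold and membrane nucleoporins on arrays 1 and 2 were mostly negative, as were those of 1883 of all 2818 ORFs. SEH1 (YGL100W), a beta-propeller protein of the Nup84 complex, had −0.73 and −0.22 on arrays 1 and 2, with a mean of −0.48 ± 0.27 (SE, 2 arrays; limma adjusted p = 0.428). In the inner ring, NUP157 (YER105C) had −1.27 and −0.02, with the lowest mean of the 20 members, −0.64 ± 0.34 (SE, 2 arrays; limma adjusted p = 0.412). The value of NUP157 thus came from array 1, and its relative NUP170 had no value. NUP192, the largest inner ring gene at 5052 bp, had −1.75 on array 1 alone. NIC96, which links the inner ring to the Nsp1 complex, had −0.45 and 0.15, and POM34 of the membrane ring had −0.37 and −0.31. After median centring the mean of NIC96 was 0.04, and those of SEH1, NUP157, NUP133 and POM34 stayed negative. NUP157 then lacked a common sign. With array 1 turned SEH1 had 0.26 and NUP157 0.63.

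The inner ring also held a positive gene. ASM4 (Nup59, YDL088C), which helps to attach the ring to the membrane, had 0.97 and 0.32, with a mean of 0.65 ± 0.28 (SE, 2 arrays; limma adjusted p = 0.371). Its relative NUP53 had −0.08 on array 1 alone, on the other side of 0, with no second value to set beside it.

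**Figure D3:**
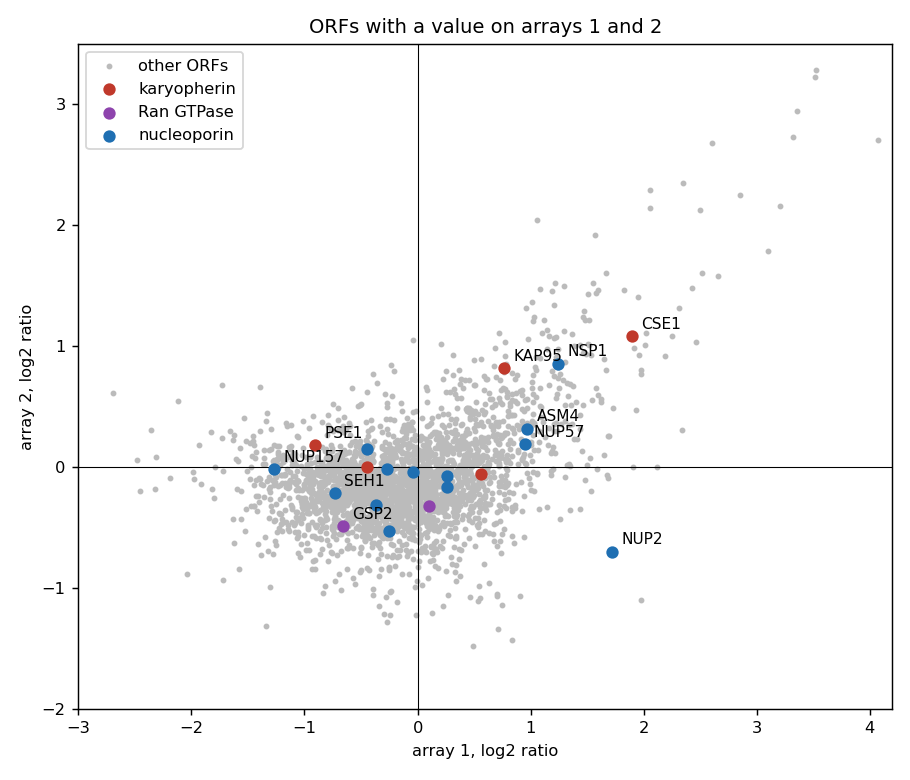
Log2 ratio on array 2 (vertical) against array 1 (horizontal) for the 20 members and the other ORFs with both values; 1 of these 2798 other ORFs lies outside the drawn range. CSE1, NSP1 and KAP95 lie in the upper right among ORFs high on both arrays, and NUP2 lies apart at the lower right.

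The 20 members on arrays 1 and 2 lay on both sides of 0, with shares near those of all ORFs. In limma 0 of 20 were called, where 0.887% of the 2818 ORFs were. An unadjusted p under 0.05 was found for 4 of 20, where 380 of the 2818 ORFs had one. These 4 were CSE1, NSP1, KAP95 and ASM4, all positive. At least 2-fold with 1 sign on both arrays were 2 of 20, CSE1 and NSP1, where 3.69% of the ORFs were. Both arrays were positive for 5 members (25.0%, against 20.5% of all ORFs), both negative for 8 (40.0%, against 47.1%), and the signs were opposite for 7 (35.0%, against 32.4%). The median of the means was −0.07 for the members and −0.18 for all ORFs, with 45.0% positive among members and 33.2% among all ORFs. With the sign of array 1 turned both arrays were positive for 2 members (10%, against 12.9% of all ORFs), both negative for 5 (25.0%, against 19.5%) and opposite for 13 (65.0%, against 67.5%). The medians were then −0.07 for the members and 0.00 for all ORFs, with 45.0% positive among members and 49.3% among all ORFs, so the order of members and all ORFs turned with array 1. Pearson's r between the arrays was 0.434 over the 20 members and 0.436 over all 2818 ORFs, with Spearman's rho of 0.296 and 0.297, as descriptions across genes that share the same arrays.

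The calls changed with the scaling of the arrays. With each array centred on its median the median of all ORFs was 0.00, against −0.18 as deposited, and 2 of 20 members, CSE1 and NSP1, were then called, where 4.76% of the ORFs were. With equal spread given to the centred arrays 3 of 20 were called, KAP95 as well, where 5.89% of the ORFs were. With the length trend removed 1 of 20 was called, CSE1, where 1.88% of ORFs were. These limma fits rest on 1 residual degree of freedom per gene and so mostly on the error shared over genes. The prior degrees of freedom were 7.81 as deposited, 7.70 with the length trend removed and 27.5 with equal spread, and infinite after centring. After centring each gene thus had the same standard error, 0.33, and CSE1 had the lower adjusted p of 2.98e-05 with a larger standard error than the 0.29 of the deposited values. The fits of arrays 1 and 2 had no dye term, though the dyes were swapped between the 2 arrays. If arrays 1 and 2 are of 1 culture, their spread holds labelling, dye and hybridization, and no spread between cultures.

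**Figure D4:**
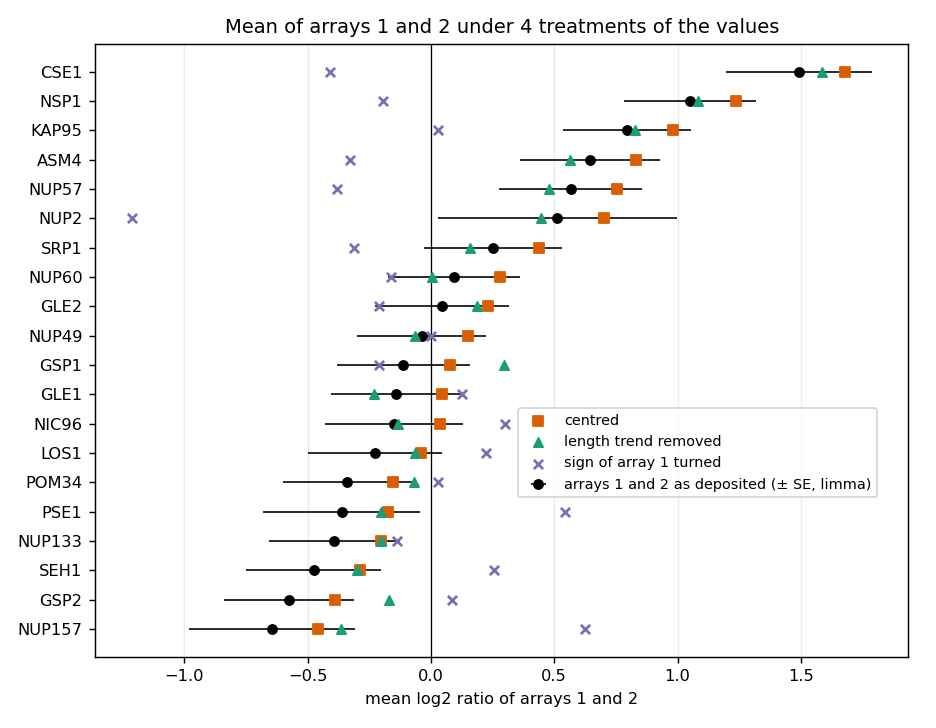
Mean log2 ratio of arrays 1 and 2 (horizontal axis) for the 20 members, as deposited with its limma standard error (black), with each array centred on its median (orange), with the length trend removed (green) and with the sign of array 1 turned (purple crosses). CSE1 is highest under the first 3, from 1.49 to 1.68, and has −0.41 under the last.

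Values past 2-fold made up a larger share of the members than of all ORFs on array 1, a difference that was not tested, and they lay in both directions. On array 1, 10 of 29 members had a value of at least 1 in size (34.5%), 4 positive and 6 negative. Of all ORFs there 19.7% did, 205 positive and 535 negative. On array 2, 1 of 20 members did (5.00%), CSE1, where 3.14% of all ORFs did, 60 positive and 29 negative. On array 4, 5 of 6 members did (83.3%), all negative. Of all ORFs there 54.4% did, 57 positive and 408 negative.

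Gene length moved with the values of array 1. The members are long genes, with a median of 2882 bp against 1248 bp over the 5711 ORFs with a RefSeq length, and 20 of the 44 span at least 3000 bp. On array 1 the median over all ORFs was −0.53 for genes under 1000 bp, 0.08 from 1000 to 2000 bp, 0.13 from 2000 to 3000 bp and −0.59 from 3000 bp up. The members in these length classes had medians on array 1 of −0.37 (3 genes), 0.26 (9 genes), 1.01 (6 genes) and −1.27 (11 genes). Array 2 did not show the low median of long genes. Over ORFs with a value on arrays 1 and 2, those from 3000 bp up had medians of −0.52 on array 1 and −0.02 on array 2. The 13 members with no value were 2142 to 4968 bp long, with a median of 3147 bp. Arrays 1 and 2 both measured 4 of the 20 members of at least 3000 bp (20.0%, against 34.1% of all such ORFs) and 8 of the 9 members from 1000 to 2000 bp (88.9%, against 52.2%).

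The 9 members on array 1 alone had a median length of 3255 bp and a median value of −1.34, with 1 positive and 8 negative. All 908 ORFs on array 1 alone had a median length of 1473 bp and a median value of −0.60, with 24.1% positive. With the length trend removed, CRM1 had 1.67 on array 1, MSN5 −1.20, KAP120 −1.41, KAP114 −1.08, NUP192 −1.03 and NUP116 −7.38, so the signs of these genes stayed. The part of length in the values was not tested beyond this removal.

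**Figure D5:**
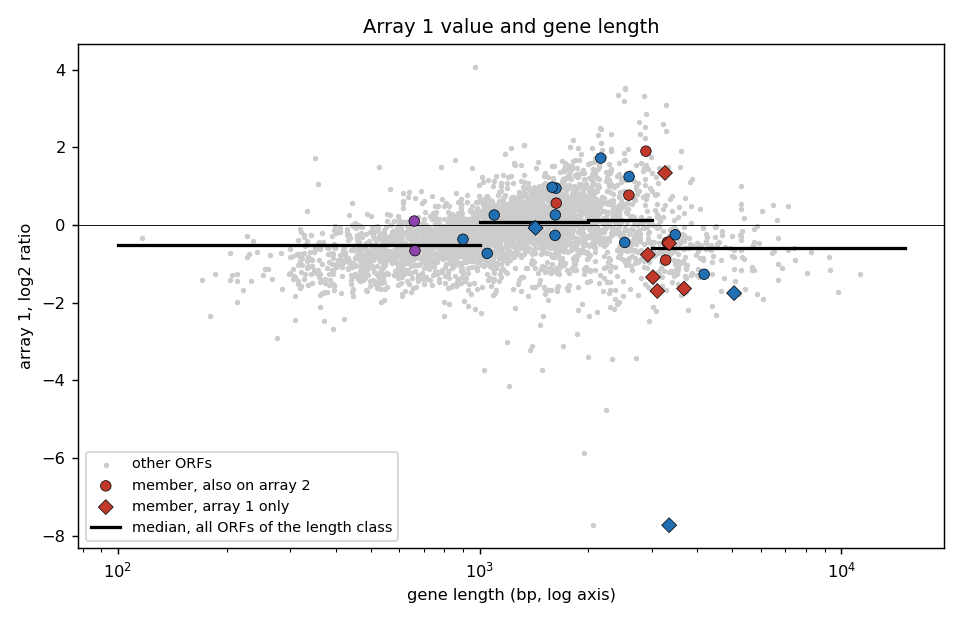
Array 1 log2 ratio (vertical axis) against gene length (bp, log axis) for members (karyopherins red, Ran GTPases purple, nucleoporins blue; diamonds had a value on array 1 alone) and other ORFs (grey), with the median of all ORFs in each of 4 length classes as a black line. Most diamonds lie at 3000 bp or more and below 0, where the class median is −0.59.

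Other genes of nuclear transport were read from lists of Ran cofactors, mRNA export factors and further pore components, 39 genes in all. Arrays 1 and 2 measured 18 of them, and 1 was called, with a positive value, and 0 with a negative value (limma), where 0.887% of all ORFs were called. That gene was NPL3, an mRNA-binding protein that shuttles between nucleus and cytoplasm and is the cargo of Mtr10. NPL3 had 1.58, 1.44 and −0.19 on arrays 1, 2 and 4, with a mean over arrays 1 and 2 of 1.51 ± 0.26 (SE, 2 arrays; limma adjusted p = 0.0339). Over all 3 arrays its fitted value was 1.10 ± 0.73 (SE, 3 arrays; limma adjusted p = 0.868), so NPL3 was not called once array 4 was included. With the sign of array 1 turned its mean over arrays 1 and 2 was −0.07. In limma 0 of the 18 genes were then called, with 0 at an unadjusted p under 0.05. Of all 2818 ORFs 1 was called, with 22 at an unadjusted p under 0.05.

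Of the 7 Ran cofactors, 3 were on arrays 1 and 2, with means of 0.30 for SRM1, the Ran exchange factor, −0.03 for YRB2 and −0.29 for YRB1, both Ran-binding proteins. YRB1 had −0.41, −0.17 and −1.88 on arrays 1, 2 and 4. On array 4 alone, RNA1, the Ran GTPase-activating protein, had −0.84, and NTF2, which imports Ran, had −2.26. Negative values on array 4 were again the rule, as over all ORFs.

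Of 19 mRNA export factors, 9 were on arrays 1 and 2, with a median mean of −0.06, 4 positive and 5 negative. At the ends beside NPL3 were GFD1 (0.28), YRA1 (−0.63) and MTR2 (−0.54), none called. On all 3 arrays YRA1, an mRNA export adaptor, had −1.25, −0.01 and −3.03, and SUB2, a helicase of the same step, had 0.22, −0.17 and −0.12. Of 13 further pore components, 6 were on arrays 1 and 2, with a median mean of −0.24, 1 positive and 5 negative. The positive gene was NDC1, a membrane nucleoporin, at 0.50, and the lowest were PER33 (−0.48) and MLP2 (−0.31). SEC13, of the Nup84 complex and of vesicle coats, was on all 3 arrays with 0.03, −0.28 and −0.69. None of these was called.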

How the data were processed

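Each array's column of the deposited table holds 1 log2 value per ORF, which the authors made from the 2 channels. The labels and table do not state the scanner, background correction, normalization, centring, direction or filter. Base 2 was read from the numbers themselves: taken as log2, 100% of the values on each array gave ratios that are multiples of 0.0001 (tolerance 0.01 of that step). The 2 control rows held no value. RefSeq names and lengths came from the gene table of assembly GCF_000146045.2 (R64): 5654 ORFs matched by locus tag, 57 by synonym and 496 did not match. No protein or promoter sequences were used here, so protein identities of related genes were not computed.

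The gene-wise test was limma 3.58.1 (R 4.3.3) on the deposited values, over ORFs with a value on every array. The fit of 3 arrays had caspofungin and dye terms. Fits of 2 arrays, and those with 2 arrays averaged, had a caspofungin term and no dye term. Benjamini-Hochberg adjustment ran over all ORFs tested, and adjusted p under 0.05 was a call. The prior degrees of freedom were infinite in the fit of 3 arrays, so each gene had the same error. By convention array 1 was taken as already turned where it correlated positively with arrays 2 and 4 (r 0.436 and 0.394 over all ORFs). A gene-specific dye effect on unturned ratios could give the same sign of correlation, so this does not settle the direction. The length trend was a loess curve on log10 gene length, removed per array. The scripts were tested on simulated data. The number of arrays limits the precision, and array 1 shares a culture with array 2 or 4. In the fit with a dye term array 1 is fitted exactly, so the p-values measure the spread between arrays 2 and 4 alone. In fits of 2 arrays they measure the spread between those 2. All members measured on 3 arrays were named in full, as were the 3 highest and 3 lowest means on arrays 1 and 2, and the others are given by their values. The rule for the members uses no measured value, but members and lists were proposed with earlier results of these data known.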

Additional observations from a re-analysis of the deposited data

How the results depend on the processing

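Under each of 11 alternatives to the fit of all arrays, leaving out an array included, 0 members were called in limma. Most of these alternatives called 0 of all ORFs too, so the count says little about the members. The exceptions were 12 of 723 ORFs with arrays 1 and 4 averaged as 1 culture and 25 of 2818 without replicate 4. At an adjusted p under 0.10 the fit of all arrays gave 0 members, where 2 of 723 ORFs passed. The fit without replicate 4 gave 1, CSE1, where 70 of 2818 ORFs passed. Of the 4 members on all arrays 0 had a positive fitted value, where 26.6% of all ORFs did. After median centring 1 did (GSP1, 0.34), against 51.7% of ORFs, and with the length trend removed 1 (GSP1, 0.56), against 58.4%. With equal spread 2 did (GSP1, 0.17, and GLE1, 0.012), against 51.7% of ORFs. Leaving out an array gave 0 to 1 (GSP1, 0.027 without replicate 2), against 20.9% to 33.2% of ORFs. The count at 2-fold with 1 sign, 0, was 1 with arrays 1 and 2 averaged as 1 culture, 2 at a 1.5-fold limit, and 0 to 2 when an array was omitted. Over all ORFs it was 95 of 723, then 191 of 723 with that average and 254 of 723 at 1.5-fold. It was 196 of 724 ORFs without replicate 1, 255 of 745 without replicate 2 and 104 of 2818 without replicate 4. With an array omitted the members' median, −0.55, was between −0.85 and −0.18, and that of all ORFs, −0.36, between −0.54 and −0.18.

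Alternatives on arrays 1 and 2 alone were chosen after the data were seen. The 0 members called became 2 after centring, 3 with equal spread and 1 with the length trend removed. The members' median, −0.07, became 0.11, 0.14 and −0.029 under these, and that of all ORFs, −0.18, became 0.005, −0.009 and 0.041. With equal spread 14 of 20 members, in place of 9, were positive, where the share of all ORFs went from 33.2% to 48.4%. After centring 13 of 20 were positive, against 50.7% of ORFs, and with the length trend removed 10 of 20, against 56.1%. The 2 members of at least 2-fold became 1 with array 1 turned, which is NUP2, where 104 of the 2818 ORFs became 14. That turn changed the sign of CSE1 (−0.41), NSP1 (−0.19), GSP2 (0.087), SEH1 (0.26) and NUP157 (0.63). It exchanges the parts of caspofungin and dye in the mean and in the spread, as these fits have no dye term. For the other changes the cause was not tested. Over all ORFs 134, 166 and 51 were called after centring, with equal spread and with the length trend removed, against 25 as deposited. Each ratio already pairs treated with untreated cells of a split culture, and no further pairing was used.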
